A study of Rattus norvegicus with 2 samples.

Results

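The genes of glycolysis and the pentose phosphate pathway were examined in natural killer (NK) cells of the rat spleen, separated into 2 populations by their receptors. The set holds 34 genes, chosen by name for their place in these pathways. It covers glucose and lactate transporters, the glycolytic enzymes, the enzymes that switch phosphofructokinase and pyruvate dehydrogenase, the pentose phosphate enzymes and the transcription factor gene Hif1a. A probe set of its own was listed for 32 of them, out of 14218 genes with such a probe set on the array, and the one brightest on average, on the log2 scale, stood for the gene. The cells came from 9 rats of the inbred PVG.7b strain, 8 to 12 weeks old, and no culture or stimulation is named in the labels. Other cells were first depleted with antibodies to TCRαβ, CD68, CD5, Igκ and CD45RA, and both populations were CD3-negative and NKR-P1A-positive. One carried NKR-P1B, an inhibitory lectin-like receptor, without Ly49s3, and the other carried Ly49s3, an activating receptor, without NKR-P1B. Sorted cells were above 90% pure per the labels. Each population was measured on 1 array, so there are no replicates, no test between the populations was possible, and every difference describes these 2 arrays.

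Glycolysis splits glucose into pyruvate in the cytosol and yields ATP and NADH. The pentose phosphate pathway branches off after the first phosphorylation and makes NADPH and the ribose of nucleotides. Resting lymphocytes, NK cells among them, use little glucose, and stimulation by cytokines raises its uptake and its conversion to lactate. The committed step of glycolysis is catalysed by phosphofructokinase, and pyruvate dehydrogenase kinases limit how much pyruvate is turned into acetyl-CoA in mitochondria.

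Signals have no physical unit, and their median was 19.6 for NKR-P1B+ and 21.3 for Ly49s3+ cells. A signal at or below a floor of 20.4, the median of all signals, was set to the floor, and a gene was counted as measured if at least 1 array was above it, which held for 9115 genes. Where 1 array was at the floor the ratio bounds the difference from below and is written as "at least". Of 14 NK cell markers all were measured, 13 above the floor on both arrays, with summed signals of 31452 for NKR-P1B+ and 28523 for Ly49s3+ cells. Of 10 T cell markers 7 were measured, with sums of 2674 and 1473. Cd8a, which rat NK cells also express, made up most of both sums (2151 and 767), Cd5 and Cd6 were past 1.5-fold toward the NKR-P1B+ sample (92.7 against 40.8 and 273 against 179), and Trat1 and Cd3g toward the Ly49s3+ sample (86.2 against 346 and 22.3 against 42.9). The defining genes Cd3e and Cd3d were below the floor on both, and the part of T cells in the members' signals was not tested. The receptor genes of the sort are not considered further. In RNA from sorted populations, fewer cells of a type and less RNA per cell cannot be told apart. As a yardstick for single genes, probe sets of the same gene disagreed in their log2 difference with an SD of 0.38 below a signal of 50, 0.22 from 200 to 500 and 0.14 above 1000. This yardstick does not hold the variation between animals, sorts or hybridisations. Spiked hybridisation controls had a median log2 difference of 0.0076 over 18 probe sets, whereas poly-A spikes had −0.53 over 17, that is, higher signals in the Ly49s3+ sample. Scaling to the poly-A spikes moved the median difference of all measured genes from −0.02 to 0.50. All directions below are therefore on the deposited scale, or relative to all genes where so stated.

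Of the measured pathway genes, 26 were less than 1.5-fold apart in the 2 populations once signals were raised to the floor. Among these, Pfkl, Pfkfb2 and Slc16a3 were at the floor on 1 array. Their ratios are lower bounds, so they are not shown to be within 1.5-fold. Of the 32 genes with a probe set, 27 were measured, 24 of them above the floor on both arrays. Only Pfkfb3, the kinase that makes an activator of phosphofructokinase, reached a 1.5-fold difference, toward the NKR-P1B+ sample, and none reached it toward the Ly49s3+ sample. Over all measured genes, 5.11% were at least 1.5-fold higher in the NKR-P1B+ sample and 5.73% in the Ly49s3+ sample, so 1 and 0 of 27 are close to what those shares would give and are no result about the pathway. By sign alone, 8 members were higher in the NKR-P1B+ sample and 19 in the Ly49s3+ sample, against 47.6% and 52.2% of all measured genes. The signs of Pfkl, Pfkfb2 and Slc16a3 were fixed in advance, since they passed the floor only on the Ly49s3+ array. The median log2 difference of the members, NKR-P1B+ minus Ly49s3+, was −0.13, and that of all measured genes −0.02. Among the 24 members above the floor on both arrays the counts were 8 and 16, with a median of −0.09. Of all genes above it on both arrays, 48.5% were higher in the NKR-P1B+ sample, with a median of −0.009. Scaled to the poly-A spikes, 25 of 26 measured members were higher in the NKR-P1B+ sample, with a median of 0.42 that was still below the 0.50 of all genes.

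**Figure D1:**
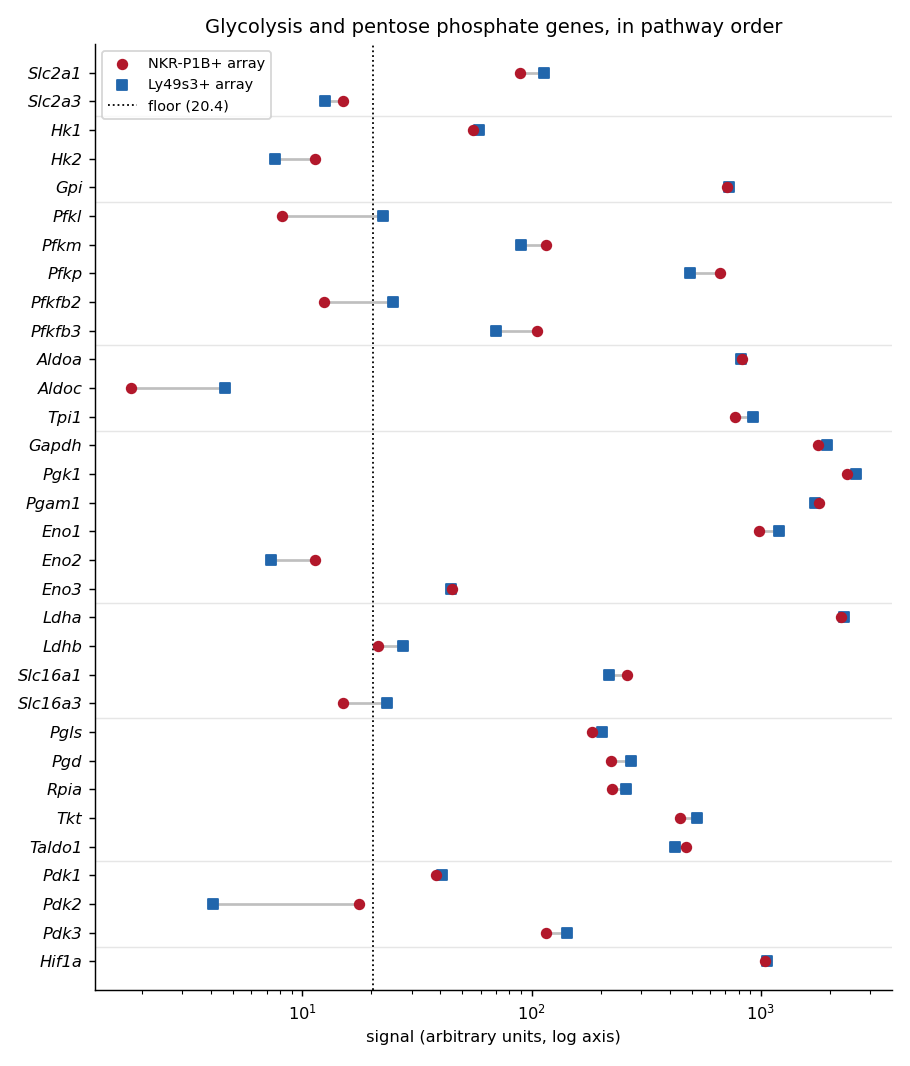
Signal of each member gene in the NKR-P1B+ sample (circles) and the Ly49s3+ sample (squares), on a log axis in arbitrary units, with the genes in pathway order and the floor of 20.4 as a dotted line. The paired symbols of most genes above the floor lie close together, and Hk2, Slc2a3, Aldoc, Eno2 and Pdk2 lie below the floor on both arrays.

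Among the genes for glucose uptake, Slc2a1, which encodes the widespread glucose transporter GLUT1, was above the floor on both arrays. Its signal was 88.9 in the NKR-P1B+ sample and 113 in the Ly49s3+ sample, 1.27-fold higher in the latter, a log2 difference of −0.34 beside a probe set SD of 0.26. Among all measured genes, 27.4% were at least as far apart. Slc2a3, which encodes the high-affinity transporter GLUT3, had 15 and 12.6 on the brighter of its probe sets, below the floor on both arrays.

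Hexokinases phosphorylate glucose and trap it in the cell. Hk1 had 55.3 in the NKR-P1B+ sample and 59.0 in the Ly49s3+ sample, a log2 difference of −0.09, well inside the probe set SD of 0.32. Hk2, the isoform that stimulated lymphocytes raise, was below the floor on both arrays, with 11.4 and 7.6. Hk3 had no probe set of its own here and was not analysed. Gpi, the isomerase that turns the phosphorylated glucose into its fructose form, had 714 and 729.

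The phosphofructokinase step held the members that were furthest apart toward the NKR-P1B+ sample, but not all of its genes went that way. Pfkp, the platelet-type subunit, had 664 in the NKR-P1B+ sample and 490.5 in the Ly49s3+ sample, 1.35-fold higher in the former. Its log2 difference of 0.44 was 2.49 times the probe set SD of 0.18 at that signal. Pfkm, the muscle-type subunit, was 1.29-fold higher in the same sample, at 116 against 90.0, and its other probe sets were below the floor. Pfkl, the liver-type subunit, was above the floor only in the Ly49s3+ sample, with 8.2 against 22.5, a ratio of at least 1.10. Pfkp and Pfkm thus had more signal in NKR-P1B+ cells, and Pfkl, close to the floor, had not.

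Pfkfb3 and Pfkfb2 encode bifunctional enzymes that make and remove the small sugar phosphate which activates phosphofructokinase. Pfkfb3 had 105 in the NKR-P1B+ sample and 69.9 in the Ly49s3+ sample, a 1.51-fold difference just past the threshold used for counting. Its log2 difference of 0.59 was 1.85 times the probe set SD of 0.32, and 10.5% of all measured genes were at least as far apart. It rests on 1 of its 3 probe sets, since the other 2 were below the floor on both arrays. With 32 added to each signal in place of the floor, Pfkfb3 was no longer 1.5-fold apart. Pfkfb2 was above the floor only in the Ly49s3+ sample, with 12.5 against 24.9, at least 1.22-fold, and its other 3 probe sets were below the floor. The 5 genes of this step were grouped after their values were seen, and their median of 0.36 is a description of 3 genes on one side and 2 on the other. The 2 are Pfkl and Pfkfb2, whose signs were fixed by the floor. Pfkfb3, Pfkp and Pfkm kept their direction under all 4 other scalings of the arrays.

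**Figure D2:**
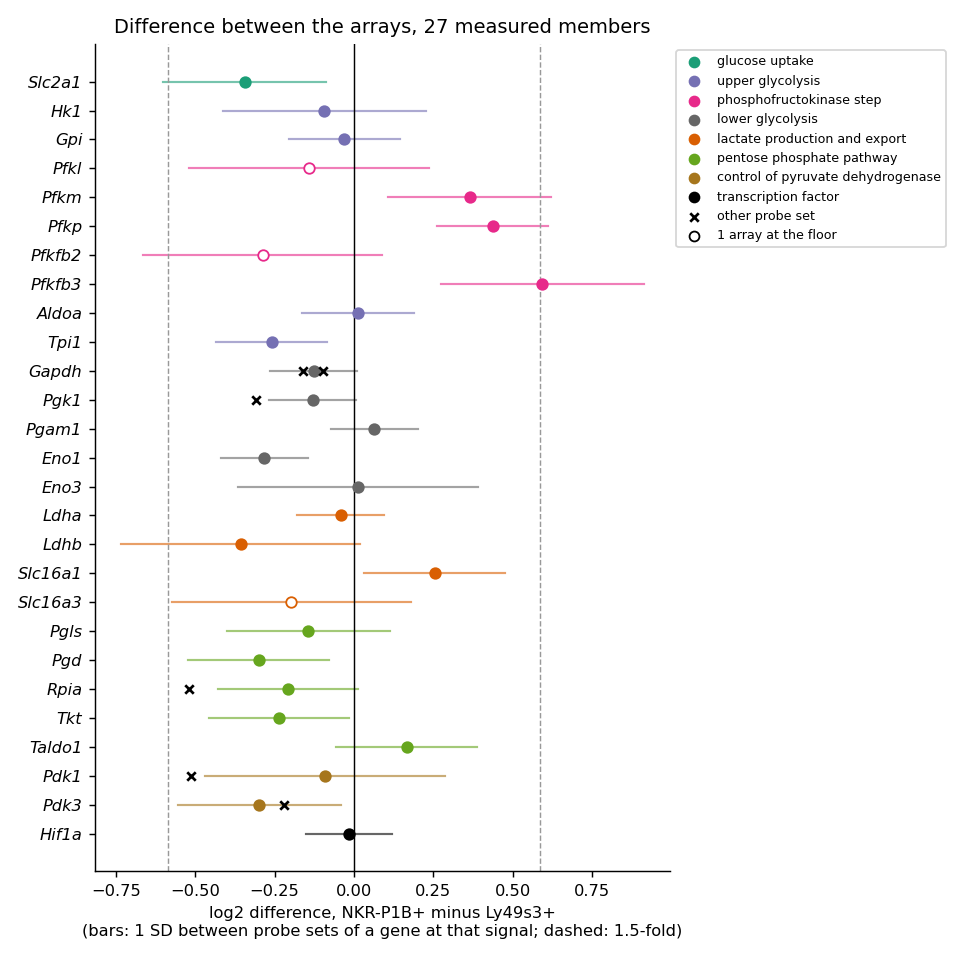
Log2 difference, NKR-P1B+ minus Ly49s3+, of the 27 measured members in pathway order, coloured by role, with bars of 1 SD between probe sets of a gene at that signal and crosses for further probe sets of the same gene above the floor. Dashed lines mark 1.5-fold. Pfkfb3, Pfkp and Pfkm lie furthest to the right, and most of the pentose phosphate and lower glycolysis genes lie left of 0 within 1.5-fold on the deposited scale, and scaling to the poly-A spikes moves the median of the members to 0.42.

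The aldolases and triose phosphate isomerase complete the first stage of glycolysis. Aldoa, the main aldolase outside liver and brain, had 826.5 and 819.5, and Aldoc, the brain isoform, was at 1.8 and 4.6, below the floor on both arrays. The sign of the Aldoa difference of 0.01 turned under quantile normalisation and with a loess trend subtracted. Tpi1, which interconverts the triose phosphates, had 774 in the NKR-P1B+ sample and 926 in the Ly49s3+ sample, a log2 difference of −0.26 that was 1.48 times the probe set SD.

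The 5 measured enzymes of lower glycolysis differed by at most 1.22-fold between the populations, with a median log2 difference of −0.13. Gapdh, which oxidises the triose phosphate, was read by 3 control probe sets of the array. Their signals were 1779, 1060 and 627 in the NKR-P1B+ sample and 1942, 1134 and 700.3 in the Ly49s3+ sample, from the 3' end to the 5' end of the transcript. All 3 were thus lower in the NKR-P1B+ sample, with log2 differences from −0.16 to −0.10. Pgk1, which makes the first ATP of the pathway, had 2378 and 2601, a difference of −0.13, and a second probe set gave −0.31. Pgam1, the mutase that follows it, went the other way by less than the probe set SD, with 1795 and 1717. Eno1, the ubiquitous enolase, had 984 in the NKR-P1B+ sample and 1196 in the Ly49s3+ sample, 1.22-fold higher in the latter. At that signal the difference of −0.28 was 2.06 times the probe set SD, the only member besides Pfkp to exceed it by that much. Its signals lie on both sides of 1000, and from 500 to 1000 the SD was larger, at 0.18. Of the tissue-restricted enolases, the neuronal Eno2 was below the floor on both arrays, with 11.4 and 7.3, and the muscle Eno3 had 45.1 and 44.7. Pkm, the pyruvate kinase of these cells, had no probe set of its own. A probe set that also matches a Pkm pseudogene had 318 and 347, and 1 matching Gapdh and a Gapdh-like gene had 1806 and 1985.

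Lactate dehydrogenase turns pyruvate into lactate, which the transporters MCT1 and MCT4 carry out of the cell. Ldha, the muscle-type subunit, had 2227 in the NKR-P1B+ sample and 2293 in the Ly49s3+ sample, a difference of −0.04. Ldhb, the heart-type subunit, lay just above the floor, with 21.4 in the NKR-P1B+ sample and 27.4 in the Ly49s3+ sample. Slc16a1, which encodes MCT1, had 259.8 and 218, 1.19-fold higher in the NKR-P1B+ sample and 1.14 times the probe set SD. Slc16a3, which encodes MCT4, was above the floor only in the Ly49s3+ sample, with 15 against 23.4, at least 1.15-fold.

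The pentose phosphate genes had slightly lower signals in the NKR-P1B+ sample in 4 of 5 cases, with a median log2 difference of −0.21. Of all measured genes, 52.2% were lower in that sample. Pgls and Pgd belong to the oxidative arm, which makes NADPH. Pgls, the lactonase, had 184 in the NKR-P1B+ sample and 203 in the Ly49s3+ sample, and Pgd, the second dehydrogenase of the arm, had 221 and 272, 1.23-fold higher in the latter. Rpia, which makes ribose phosphate, had 224.5 and 259, a difference of −0.21, and its second probe set gave −0.52 at signals of 25.1 and 36.0. In the non-oxidative arm the transketolase gene Tkt had 445 and 524, 1.18-fold higher in the Ly49s3+ sample. The transaldolase gene Taldo1 went the other way, with 472 and 420.4, inside the probe set SD. The differences of Pgd and Tkt were 1.35 and 1.06 times the probe set SD, and those of the other pentose phosphate genes below it. The median stayed below that of all genes under each of the 4 other scalings, although scaled to the poly-A spikes it was itself above 0, at 0.32, beside 0.50 for all genes.

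Pyruvate dehydrogenase kinases phosphorylate and inhibit pyruvate dehydrogenase, which makes acetyl-CoA from pyruvate. Pdk3 was above the floor on both arrays, with 116 in the NKR-P1B+ sample and 143 in the Ly49s3+ sample, 1.23-fold higher in the latter, and its second probe set agreed in sign, at −0.22 against −0.30. Pdk1, a target of hypoxia signalling, had 38.3 and 40.8, and a second probe set with 25.3 and 36.1 gave −0.51. Pdk2 was below the floor on both arrays, with 17.7 and 4.1. Hif1a, the oxygen-regulated transcription factor gene that drives many of these genes in hypoxia, had 1046 and 1057, a difference of −0.02.

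Where a gene had several measured probe sets, they pointed the same way. This held for all 5 such genes, Gapdh, Pgk1, Rpia, Pdk1 and Pdk3, and the same share over all genes was not computed. Pfkfb3, Pfkp, Pfkm and Eno1 had 1 measured probe set each. Of 33 measured probe sets of the members, 25 were lower and 8 higher in the NKR-P1B+ sample on the deposited scale. These counts hold each of the 5 genes more than once, always on the lower side. They also hold Pfkl, Pfkfb2 and Slc16a3, whose measured probe set passed the floor only in the Ly49s3+ sample. The share over all measured probe sets was not computed. Of all measured genes, 52.2% were lower in the NKR-P1B+ sample. Of the 27 measured members, 17 differed by less than the probe set SD at their signal, 10 by more, and 2, Pfkp and Eno1, by more than 2 SDs. The same shares over all measured genes were not computed, so these counts are no result about the pathway. Some members lie near each other in the genome. On chromosome 4, 50 genes are listed between Slc2a3 and Eno2, 4 between Eno2 and Tpi1 and 25 between Tpi1 and Gapdh. On chromosome 5, 32 are listed between Pgd and Eno1, and on chromosome 17, 57 between Pfkp and Pfkfb3.

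**Figure D3:**
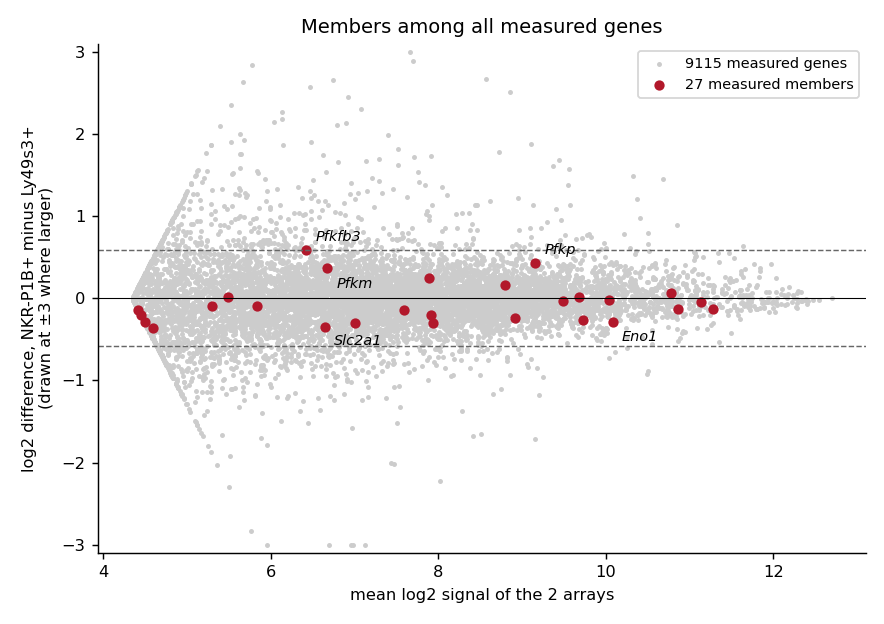
Log2 difference, NKR-P1B+ minus Ly49s3+, of each of 9115 measured genes (grey) and of the 27 measured members (red) against the mean log2 signal of the 2 arrays, with values beyond 3 drawn at 3 and dashed lines at 1.5-fold. The members lie inside the band of all genes, and only Pfkfb3 touches the 1.5-fold line.

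Promoter sequences of the pair of members above the floor on both arrays with the largest difference toward each array are shown, because these genes set the ends of the members' range. They run from 250 bases before to 50 after the annotated start, 300 bases each, and come from RefSeq on the GRCr8 build. Pfkfb3 and Pfkp were the furthest toward the NKR-P1B+ sample, and Ldhb and Slc2a1 toward the Ly49s3+ sample. Capitals mark the core letters of the hypoxia response element, ACGTG or GCGTG, and of the E box, CACGTG, on either strand, so that CACGC is GCGTG read on the other strand. Every CACGTG also holds ACGTG, and each sequence is printed in the direction of its gene.

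Pfkfb3, chr17:71944683-71944982, plus strand: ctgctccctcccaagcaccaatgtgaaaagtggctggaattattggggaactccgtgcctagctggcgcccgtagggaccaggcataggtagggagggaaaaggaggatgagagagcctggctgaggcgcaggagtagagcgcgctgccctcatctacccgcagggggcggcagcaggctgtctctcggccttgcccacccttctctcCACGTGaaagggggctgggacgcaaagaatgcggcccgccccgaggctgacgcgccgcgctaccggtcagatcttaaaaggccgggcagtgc
Pfkp, chr17:68639563-68639862, plus strand: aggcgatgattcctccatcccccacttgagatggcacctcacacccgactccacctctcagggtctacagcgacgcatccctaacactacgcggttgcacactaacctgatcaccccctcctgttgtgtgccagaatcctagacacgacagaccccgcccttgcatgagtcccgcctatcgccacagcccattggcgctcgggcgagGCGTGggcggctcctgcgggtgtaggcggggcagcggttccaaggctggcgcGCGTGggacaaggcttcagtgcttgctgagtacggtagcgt
Ldhb, chr4:177177359-177177658, minus strand: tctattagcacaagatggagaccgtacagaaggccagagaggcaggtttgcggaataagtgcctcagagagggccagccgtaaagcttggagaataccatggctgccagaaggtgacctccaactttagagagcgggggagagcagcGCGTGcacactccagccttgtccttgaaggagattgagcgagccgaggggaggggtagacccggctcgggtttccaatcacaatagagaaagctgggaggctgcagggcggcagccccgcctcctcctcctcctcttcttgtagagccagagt
Slc2a1, chr5:138002272-138002571, plus strand: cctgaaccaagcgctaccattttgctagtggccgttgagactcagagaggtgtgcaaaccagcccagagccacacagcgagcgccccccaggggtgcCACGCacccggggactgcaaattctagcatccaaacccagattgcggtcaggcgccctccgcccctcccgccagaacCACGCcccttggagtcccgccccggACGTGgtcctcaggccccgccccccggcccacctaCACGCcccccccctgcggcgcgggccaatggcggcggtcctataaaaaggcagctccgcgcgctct

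All 4 windows held the core letters, as 1 stretch for Pfkfb3, where the match is a full CACGTG 42 bases before the start, 2 for Pfkp, 1 for Ldhb and 4 for Slc2a1. Matches thus occurred in genes on both sides. Of the 31 members with a window in the table, 22 held ACGTG or GCGTG. The letters were in 23 of their 35 windows, or 65.7%, against 41.6% of all 33469 promoter windows of the same length. CACGTG was in 14.3% of the members' windows and 6.42% of all, and the members that held it were Hif1a, Ldha, Pdk2, Pfkfb3 and Slc16a1. A match is a string of letters and was not tested as a site, and the windows differ in base composition, with GC shares from 58.0% for Ldhb to 68.3% for Slc2a1 among those shown.

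Most measured further genes of the same metabolism were also less than 1.5-fold apart with signals raised to the floor. Of 36 further glycolysis and gluconeogenesis genes, 29 had a probe set of their own and 13 were measured, 5 higher in the NKR-P1B+ sample and 8 in the Ly49s3+ sample, with a median of −0.08. Slc2a8, an intracellular glucose transporter, was 1.56-fold higher in the NKR-P1B+ sample, with 46.6 against 29.9. Gapdhs, the sperm-type relative of Gapdh, was above the floor only in the Ly49s3+ sample, at least 1.77-fold higher, with 18.9 against 36.1. That is 1 of 13 toward each sample, beside 5.11% of all measured genes toward NKR-P1B+ and 5.73% toward Ly49s3+. The brightest of the list by mean signal were Bsg, which encodes the chaperone of the lactate transporters, with 377 and 343, and Minpp1, a phosphatase, with 222.5 and 219. With signals raised to the floor, all 10 measured genes of the further pentose phosphate and nucleotide sugar list were within 1.5-fold. By sign, 5 were higher in the NKR-P1B+ sample and 5 in the Ly49s3+ sample, with a median of −0.001. H6pd was above the floor only in the Ly49s3+ sample, with 11 against 22.6. Its ratio of at least 1.11 does not show it to be within 1.5-fold. The brightest were Prps2, which makes the activated ribose of nucleotide synthesis (1050 and 1200.4), and Ugp2 (618 and 589).

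With signals raised to the floor, the 11 measured genes for pyruvate entry into mitochondria and its oxidation were within 1.5-fold. Their median was −0.04. Pdha1, a catalytic subunit of pyruvate dehydrogenase, had 1673 and 1609, and its partner Pdhb had 625 and 735.5. The kinase gene Pdk4 was above the floor only in the Ly49s3+ sample, with 11.3 against 28.4. Its ratio of at least 1.39 is a lower bound, so it is not shown to be within 1.5-fold. The 17 measured regulators of lymphocyte glucose metabolism were also within 1.5-fold, with a median of −0.02. Their brightest genes were Rheb, the activator of mTOR (1601 and 1621), and the stress factor Nfe2l2 (1375 and 1412). Myc, which drives glycolysis in dividing lymphocytes, had 534 and 612.5, and Mtor 145 and 164; both are named here after their values were seen.

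Targets and regulators of the hypoxia pathway outside glycolysis had members on both sides, with a median of 0.14. In the NKR-P1B+ sample 9 of 13 measured genes were higher, against 47.6% of all measured genes. The 2 that were 1.5-fold apart were both higher in the Ly49s3+ sample, beside 5.73% of all measured genes. Ddit4, an inhibitor of mTOR, had 118 in the NKR-P1B+ sample and 218 in the Ly49s3+ sample, a 1.84-fold difference, and Bnip3, a gene of mitochondrial removal, had 40.6 and 62.7, a 1.54-fold difference. The brightest genes, Bnip3l and Kdm3a, had 878 and 898, and 437 and 369.9. Arnt, the partner of Hif1a, was at 0.7 and 1.1 and Vegfa at 14.1 and 17.7, all below the floor. The other 11 measured genes of this list were within 1.5-fold with signals raised to the floor. Among them Egln3 (27.5 and 19.8) and Ankrd37 (18.7 and 23.8) were at the floor on 1 array, so their ratios are lower bounds.

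**Figure D4:**
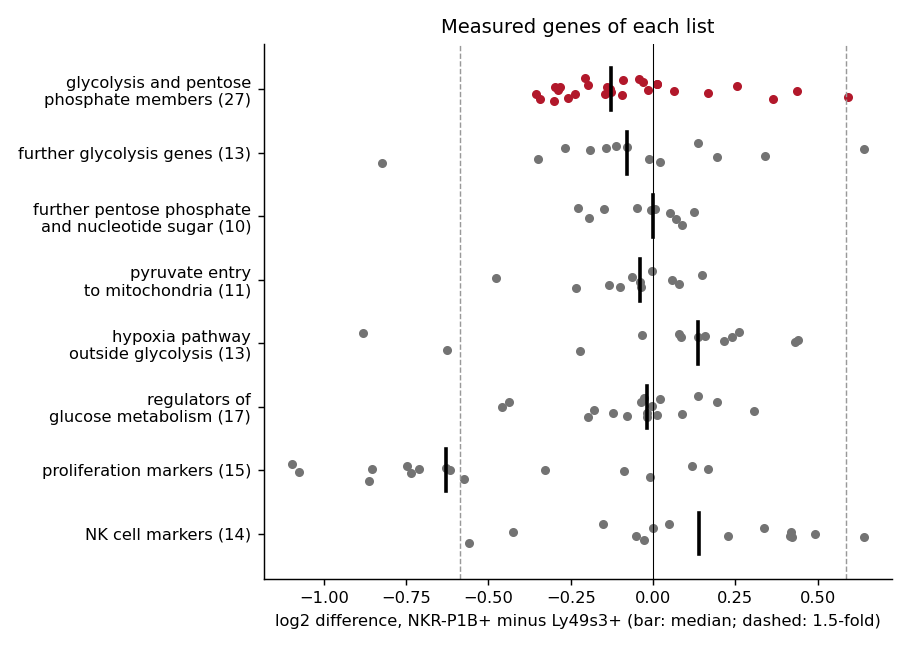
Log2 difference, NKR-P1B+ minus Ly49s3+, of the measured genes of each list (1 point a gene, number in brackets), with the median as a bar and dashed lines at 1.5-fold. The metabolic lists centre near 0, between −0.13 and 0.14, while the proliferation markers centre at −0.63, all on the deposited scale.

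Markers of dividing cells differed between the arrays more than the metabolic genes did. Of 15 measured proliferation markers, 9 were past 1.5-fold toward the Ly49s3+ sample and 0 toward the NKR-P1B+ sample, with a median of −0.63. The shares of all measured genes were 5.73% and 5.11%. Kif2c, among the 9, was at the floor in the NKR-P1B+ sample (19.6 against 43.6), so its ratio is a lower bound. Mki67, for example, had 270.3 and 449.5. This is the same direction as that of 19 of 27 members, or of 16 of the 24 above the floor on both arrays. The part of dividing cells in the members' small shift was not tested. Markers of antigen-presenting cells were higher in the NKR-P1B+ sample in 5 of 6 measured genes, against 47.6% of all measured genes. Of the 5, RT1-Bb and RT1-Db1 were above the floor only there. The list had summed signals of 2939 and 2014 over all 8 genes with a probe set. Itgax, which NK cells can also express, made up most of both sums (2281 and 1716). The 3 genes past 1.5-fold were the class II genes RT1-Da (346 and 97.7) and RT1-Db1 (42.3 and 17.4) and the invariant chain gene Cd74 (197 and 120.0), all higher in the NKR-P1B+ sample. Of 10 macrophage and monocyte markers only Lyz2 was measured, with 356 and 133. The other 9, among them Cd68, Csf1r, Cd14 and the C1q genes, were below the floor. Mature red cells depend on glycolysis for ATP and on the pentose phosphate pathway for NADPH. Of 7 erythroid markers 4 were measured, with summed signals of 373.5 and 353 over all 7. Hbb was higher in the NKR-P1B+ sample (276 and 153), whereas Hemgn (50.6 and 131), Epor (15.5 and 35.8) and Slc4a1 (9.9 and 21.7) were higher in the Ly49s3+ sample, and Alas2, Ahsp and Klf1 were below the floor. Of 5 B cell markers 3 were measured. Cd22 (103 and 52.9) and Blnk (26.1 and 0.9) were higher in the NKR-P1B+ sample and Bank1 (156 and 248) in the Ly49s3+ sample. Cd79b and Ms4a1 were below the floor. The part of any of these cell types in the members' signals was not tested.

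**Figure D5:**
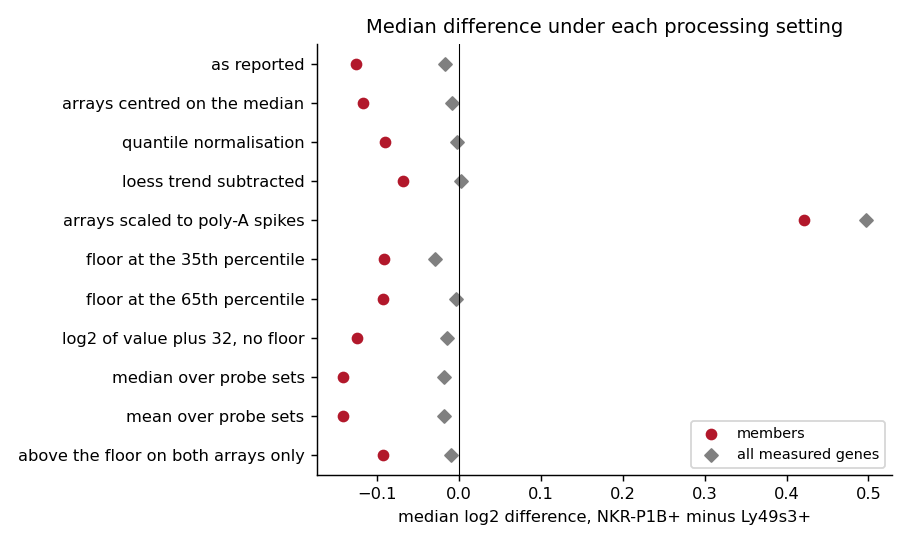
Median log2 difference, NKR-P1B+ minus Ly49s3+, of the measured members (circles) and of all measured genes (diamonds) under the reported setting and 10 others. The members' median lies below that of all genes in each, and both move to the right, to 0.42 and 0.50, when the arrays are scaled to their poly-A spikes.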

How the data were processed

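The authors deposited a linear intensity for each probe set, made with MAS5 per the submitters' processing notes. No source used here gives the MAS5 version, the scaling or how RNA of the rats was pooled. Cells were sorted, and RNA was extracted and labelled from 3 ug per array, per the labels. Both samples were used, with 31099 probe sets, of which 20832 had 1 gene symbol in the platform annotation, 436 several and 9831 none listed. Gene numbers of 20764 of the first were in RefSeq's GRCr8 table, which also held all 34 members. That build was used only for names, neighbours and promoters.

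Signals below the 50th percentile of non-control probe sets were raised to it, and all were converted to log2 with numpy 2.4.6 and pandas 2.3.3 in Python 3.11.15. Each gene was represented by its brightest probe set with 1 symbol, control probe sets included, which supply Gapdh. Differences are NKR-P1B+ minus Ly49s3+, counted at 1.5-fold. With 1 array per population no p-value was computed, and the number of arrays limits the precision. All members were named. Of the other lists, the genes at least 1.5-fold apart and the 2 brightest were named, of the marker lists only examples. The members and lists were chosen with earlier results of these data known. The calculation was tested on simulated data in which bright genes were changed 2-fold. That checks the arithmetic and does not show how well smaller differences, or signals near the floor, are read. Other settings were centring, quantile normalisation, a loess trend with a span of 0.3 (statsmodels 0.14.6), poly-A spikes, other floors and thresholds, and means or medians over probe sets. Hk3 and Pkm were left out of gene results for want of a probe set of their own in the annotation used.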

Additional observations from a re-analysis of the deposited data

How the results depend on the processing

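The median of the members and the counts rest on 2 arrays, and signal near the floor limits Pfkl, Pfkfb2, Slc16a3 and Ldhb. Scaling to the poly-A spikes turned the sign of the members' median, from −0.13 to 0.42, and gave 25 members higher in the NKR-P1B+ sample and 6 at least 1.5-fold higher there, beside a median of 0.50 for all genes. The direction relative to all genes did not turn. With the floor at the 35th percentile, 2 members were 1.5-fold higher in the NKR-P1B+ sample (Pdk2 and Pfkfb3) and 3 in the Ly49s3+ sample (Pfkfb2, Pfkl and Slc16a3), which a lower floor brings about by allowing larger ratios. Adding 32 gave 0 toward the NKR-P1B+ sample. At a threshold of 0.32 on the log2 scale 3 members were higher in the NKR-P1B+ sample (Pfkfb3, Pfkm and Pfkp) and 2 in the Ly49s3+ sample (Ldhb and Slc2a1), and at 2-fold 0 and 0. Under all other settings tried, including 2 chosen after seeing the data (probe sets shared with other genes included, and control probe sets left out), these counts stayed within 1.5 times and the median within 0.1. Of 259 values of single members under the alternatives, 232 moved by less than the probe set SD and 27 by more, 24 of them with the poly-A scaling. No paired analysis was possible because each population has 1 array.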
